A study of Rattus norvegicus with 12 samples.

Results

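The TGF-beta genes described here are 9 of the 37209 genes listed for the rat central nucleus of the amygdala (CeA). They were picked by gene name as ligands, receptors and matrix-related targets of the pathway, with earlier results of these data known. They comprise the ligands *Tgfb1*, *Tgfb2* and *Tgfb3*, the receptors *Tgfbr1*, *Tgfbr2* and *Tgfbr3*, the latency protein *Ltbp1*, the activator *Thbs1* and the target *Ctgf*. All 9 passed the filter on low counts and were among the 20944 genes tested.

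TGF-beta ligands are secreted in a latent form that is tethered to the extracellular matrix by latent TGF-beta binding proteins and released by integrins, proteases or thrombospondin-1. The free ligand brings together a type II and a type I receptor kinase, which phosphorylate Smad2 and Smad3, and these enter the nucleus with Smad4 to switch on genes for matrix proteins, protease inhibitors and feedback regulators. In the brain the pathway is known for its roles in astrocytes, microglia and the wall of blood vessels.

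CeA punches came from 12 wild type Sprague Dawley rats that were 14 to 16 weeks old, all of them male. The 6 CIE rats (rats 1 to 6) had chronic intermittent ethanol vapor and were taken immediately after the last exposure, and the 6 Control rats (rats 7 to 12) breathed air. Both groups were anesthetized with isoflurane, and 1 randomly chosen hemisphere of each rat gave 1 poly-A RNA-Seq library. The rats were group housed, and the labels do not give cages, so rats that shared a cage cannot be told from rats that did not. The labels do not give the order of processing. CIE rats hold the first numbers and Control rats the last. If the numbers follow that order, its effect cannot be told apart from CIE.

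Total counts ranged from 61978486 to 78441691 in CIE and from 39082548 to 95647601 in Control, and the members had between 177 and 4242 counts in a rat. The inhibitory neuron gene *Gad1* had a mean of 620.6 counts per 1000000 counted (CPM) in CIE and 621.0 CPM in Control, but does not by itself identify the CeA. Of 11 tested CeA neuron markers, 3 had a log2 fold change of CIE against Control above 0 and 8 below. At edgeR p below 0.05, 0 were higher and 2 lower. Means in CIE and Control were 5.97 and 8.15 CPM for *Crh*, and 762.6 and 670.9 CPM for *Penk*. Summed CPM of the CeA markers ranged from 1949 to 3503 in CIE and from 2122 to 4005 in Control (exact permutation p 0.974). Markers of neighbouring regions were high in some punches. Summed CPM of 7 striatal projection neuron markers was 3516 in CIE rat 2 and 3903 in Control rat 10, 1604 in CIE rat 4 and 258 to 888 in the other rats. Summed CPM of 8 cortical glutamatergic neuron markers was highest in CIE rat 1 (493), CIE rat 4 (363), CIE rat 2 (312) and Control rat 10 (224). All 8 had a log2 fold change above 0 (median 1.23), and 1 was higher at edgeR p below 0.05. Group medians of the cortical sum were 237.9 CPM in CIE and 99.96 CPM in Control (exact permutation p 0.115). All 7 striatal markers were also above 0 (median 0.263), with medians of 667.7 CPM in CIE and 519.5 CPM in Control (exact permutation p 0.491).

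CIE and Control were compared to ask whether chronic intermittent ethanol vapor goes with altered TGF-beta gene expression. The paper states that the CIE rats were still intoxicated when taken. Intoxication and dependence therefore cannot be told apart here. *Tgfb3*, *Tgfbr3* and *Ctgf* had higher levels in CIE at a nominal *p* below 0.05, with fold changes of 1.43, 1.38 and 2.48, while the other 6 members missed that threshold. None of the 9 members passed 5% false discovery rate (FDR) in edgeR's quasi-likelihood test, where 0.363% of all tested genes did. At the nominal threshold 3 of 9 members passed, beside 8.31% of all tested genes, and all 3 were higher in CIE, beside 4.0% of all tested genes that were higher and 4.31% that were lower. DESeq2 placed 2 members past 5% FDR (*Tgfbr3* and *Ctgf*), against 1.36% of all genes, and limma-voom with sample quality weights also placed 2 (*Tgfbr3* and *Tgfb3*), against 1.12%. The groups overlapped for every member, whereas they did not overlap for 0.893% of the tested genes. CPM here is scaled by edgeR's TMM factors, and in bulk tissue fewer cells of a type and less RNA per cell cannot be told apart.

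**Figure D1:**
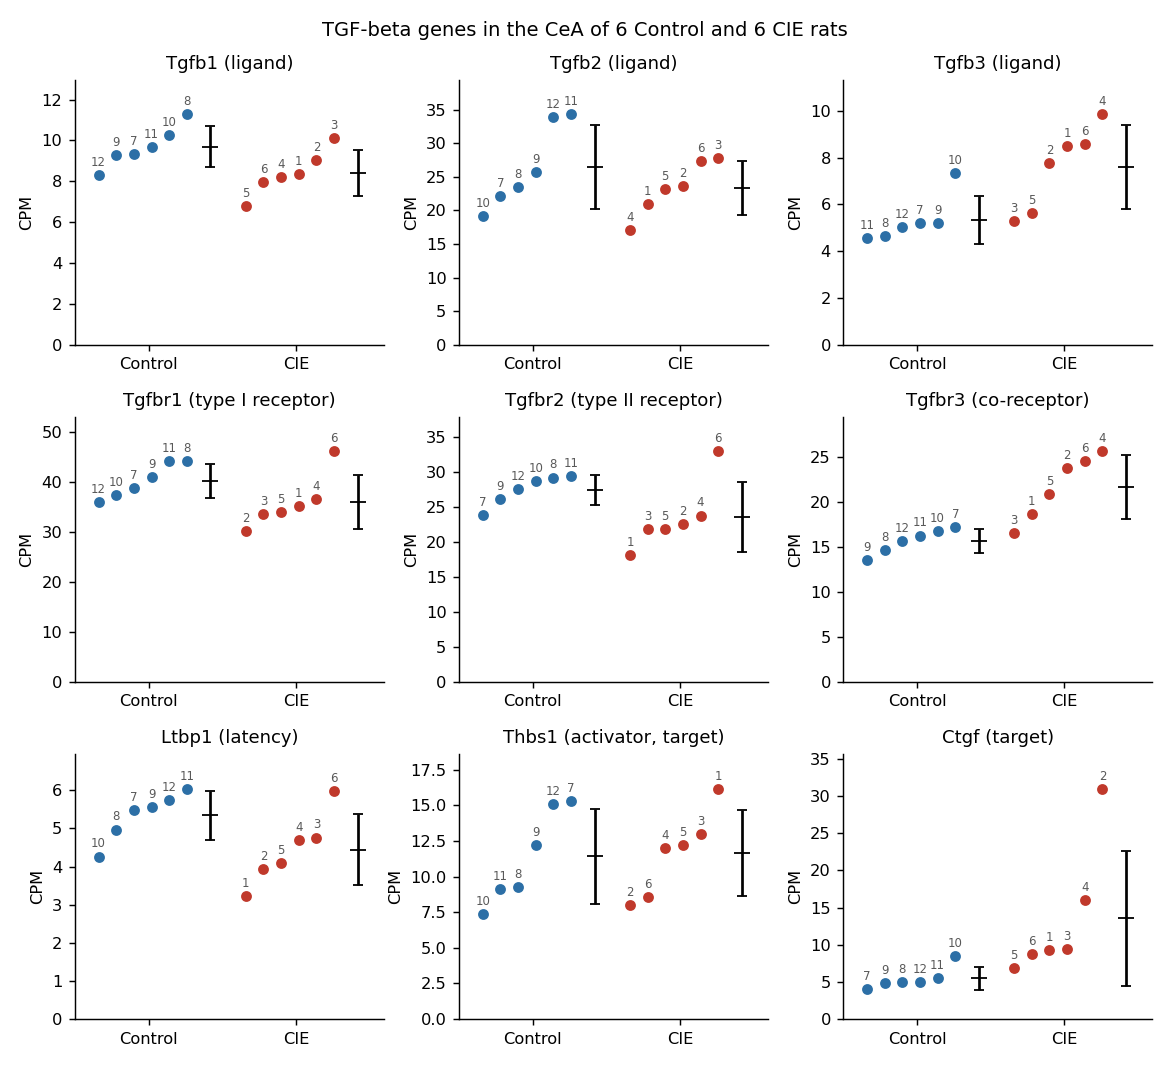
Each panel plots 1 gene in CPM, with 1 point for each of the 6 Control (blue) and 6 CIE (red) rats, the rat's number above the point, and the group mean with SD as a bar at the right. *Ctgf* reached 31.0 CPM in CIE rat 2, and for *Tgfbr3* 5 of 6 CIE rats lay above all Control rats.

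Among the ligands, *Tgfb3* stood apart from the other two in direction. It encodes the third TGF-beta isoform, which binds the type II receptor directly. Its level ranged from 5.30 to 9.85 CPM (median 8.13) in CIE and from 4.57 to 7.33 CPM (median 5.11) in Control. CIE rats 1, 2, 4 and 6 lay above every Control rat, CIE rats 3 and 5 lay within the Control range, and Control rat 10 was the high point of its group. The mean was 7.60 ± 1.80 CPM (SD, n = 6) in CIE and 5.32 ± 1.02 CPM (SD, n = 6) in Control. The log2 fold change of *Tgfb3* was 0.51 (SE 0.17, 95% interval 0.16 to 0.87), with a nominal edgeR p of 0.00818, an FDR of 0.353 and an exact two-sided permutation p of 0.0173. Leaving out 1 rat at a time kept the nominal call, with the smallest FDR (0.133) without Control rat 10 and the largest (0.645) without CIE rat 4.

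*Tgfb1*, the isoform best known from immune cells and injury, pointed the other way without passing the test. It ranged from 6.78 to 10.1 CPM (median 8.28) in CIE and from 8.32 to 11.3 CPM (median 9.52) in Control. CIE rats 4, 5 and 6 lay below every Control rat, and the other CIE rats lay within the Control range. Its log2 fold change was -0.20 (SE 0.10, 95% interval -0.43 to 0.02), with an edgeR FDR of 0.639 and an exact permutation p of 0.0628.

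*Tgfb2*, the isoform that depends on betaglycan to bind its signaling receptors well, was spread widely in both groups. It ranged from 17.1 to 27.9 CPM (median 23.4) in CIE and from 19.2 to 34.3 CPM (median 24.6) in Control. Control rats 11 and 12 were the highest, and the remaining rats of both groups were mixed. A log2 fold change of -0.18 (SE 0.15, 95% interval -0.51 to 0.15) had an edgeR FDR of 0.820.

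*Tgfbr3* encodes betaglycan, a membrane proteoglycan without kinase activity that presents ligand, above all TGF-beta2, to the type II receptor. It ranged from 16.6 to 25.6 CPM (median 22.3) in CIE and from 13.5 to 17.2 CPM (median 16.0) in Control. CIE rats 1, 2, 4, 5 and 6 lay above every Control rat, and CIE rat 3 lay inside the Control range. Means were 21.7 ± 3.59 CPM (SD, n = 6) in CIE and 15.7 ± 1.37 CPM (SD, n = 6) in Control. For *Tgfbr3* the log2 fold change was 0.47 (SE 0.11, 95% interval 0.24 to 0.70), with a nominal edgeR p of 0.000690, an FDR of 0.112 and an exact permutation p of 0.00649. This was the smallest edgeR p of the 9 members and rank 129 of all tested genes. Its FDR was 0.00637 in DESeq2 and 0.0233 in limma-voom, and in edgeR it was 0.0254 without CIE rat 3, where 0.449% of genes passed, and 0.278 without Control rat 9.

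The kinase receptors did not share this direction. *Tgfbr2*, the type II kinase that binds the ligand, ranged from 18.1 to 32.9 CPM (median 22.2) in CIE and from 23.8 to 29.4 CPM (median 28.1) in Control. In CIE 5 of 6 rats lay below every Control rat, while CIE rat 6 was the highest of all 12. Its log2 fold change was -0.22 (SE 0.12, 95% interval -0.48 to 0.03), with an edgeR FDR of 0.658 and an exact permutation p of 0.0714.

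*Tgfbr1*, the type I kinase that phosphorylates Smads, ranged from 30.1 to 46.1 CPM (median 34.6) in CIE and from 36.0 to 44.1 CPM (median 39.8) in Control. CIE rats 1, 2, 3 and 5 lay below every Control rat, and CIE rat 6 was again the highest of all. The difference on the log2 scale was -0.16 (SE 0.09, 95% interval -0.36 to 0.04), with an edgeR FDR of 0.709.

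CIE rat 6 carried the highest CIE sums of endothelial, mural, astrocyte, microglial and oligodendrocyte markers. Without it, 6 of 9 members passed the nominal threshold, beside 9.26% of all genes. *Tgfbr2* then had a log2 fold change of -0.34 (edgeR p 0.000899, FDR 0.0830) and *Tgfbr1* one of -0.24 (edgeR p 0.00555, FDR 0.223). The part of the marker sums in the receptor values was not tested.

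*Ltbp1*, which ties latent TGF-beta to matrix fibers, ranged from 3.21 to 5.97 CPM (median 4.40) in CIE and from 4.26 to 6.05 CPM (median 5.52) in Control. CIE rats 1, 2 and 5 lay below every Control rat, and CIE rat 6 was near the top of the Control range. Its log2 fold change was -0.26 (SE 0.14, 95% interval -0.57 to 0.04), with an edgeR FDR of 0.676.

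*Thbs1*, or thrombospondin-1, a matrix glycoprotein of astrocytes and platelets that can free TGF-beta from its latent form, gave no direction. It ranged from 8.03 to 16.2 CPM (median 12.1) in CIE and from 7.40 to 15.3 CPM (median 10.8) in Control, so that each group spanned nearly the same values. The log2 fold change was 0.03 (SE 0.21, 95% interval -0.41 to 0.47), with an edgeR FDR of 0.982, and its sign turned when single rats were left out.

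*Ctgf* (current symbol *Ccn2*), a secreted matricellular protein induced by TGF-beta and by the Yap and Tead factors, had the highest fold change of the members and the widest spread. It ranged from 6.82 to 31.0 CPM (median 9.35) in CIE and from 3.97 to 8.47 CPM (median 4.995) in Control. CIE rat 2 (31.0 CPM) and CIE rat 4 (16.0 CPM) stood far above the rest, 3 more CIE rats lay just above every Control rat, and CIE rat 5 lay below Control rat 10. The coefficient of variation was 67.3% in CIE and 28.4% in Control. For *Ctgf* the log2 fold change was 1.31 (SE 0.34, 95% interval 0.59 to 2.03), with a nominal edgeR p of 0.00160, an FDR of 0.166 and an exact permutation p of 0.00433. Without CIE rat 2 the log2 fold change was 0.88 (95% interval 0.40 to 1.36, edgeR FDR 0.218), and the ratio of group medians over all 12 rats was 1.87.

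**Figure D2:**
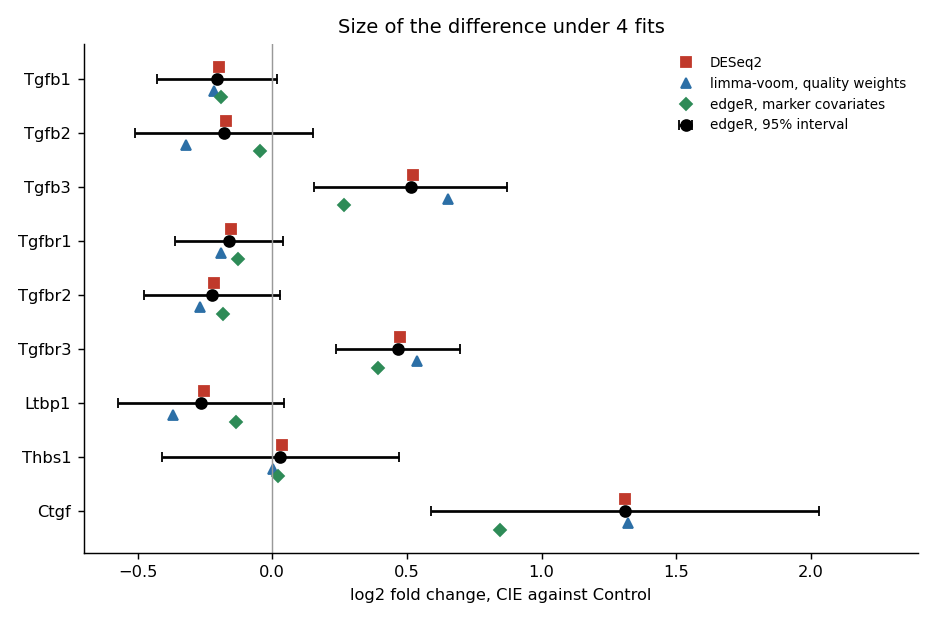
Log2 fold change of CIE against Control for each member, as the edgeR estimate with its 95% interval (black) and as estimates of DESeq2 (red squares), limma-voom with quality weights (blue triangles) and edgeR with cortical and striatal marker sums as covariates (green diamonds). The intervals of *Tgfb3*, *Tgfbr3* and *Ctgf* lie above 0, and the covariate fit gives *Tgfb3* 0.27 and *Ctgf* 0.85.

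Promoters of the 3 members past the nominal threshold are shown to set the letters bound by the pathway's factors beside the values. All 9 members were found in the RefSeq promoter table of build GRCr8, *Ctgf* through its current symbol. Each line gives the 250 bases before the start site, 5′ to 3′ on the gene's strand, with capitals for CAGAC or GTCTG (the Smad element on either strand) and for GGAATG or CATTCC (the Tead element on either strand).

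*Ctgf*, chr1:22624615-22624864, minus strand: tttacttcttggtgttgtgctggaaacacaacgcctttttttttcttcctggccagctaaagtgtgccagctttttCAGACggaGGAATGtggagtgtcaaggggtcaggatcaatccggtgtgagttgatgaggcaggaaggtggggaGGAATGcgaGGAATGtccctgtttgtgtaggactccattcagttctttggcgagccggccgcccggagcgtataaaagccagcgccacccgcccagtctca

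*Tgfb3*, chr6:111456947-111457196, minus strand: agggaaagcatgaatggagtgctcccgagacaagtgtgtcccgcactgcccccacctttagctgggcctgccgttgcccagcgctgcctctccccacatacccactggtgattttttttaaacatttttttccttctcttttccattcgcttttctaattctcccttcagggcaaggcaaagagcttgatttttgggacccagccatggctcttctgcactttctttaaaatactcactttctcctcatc

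*Tgfbr3*, chr14:2634044-2634293, plus strand: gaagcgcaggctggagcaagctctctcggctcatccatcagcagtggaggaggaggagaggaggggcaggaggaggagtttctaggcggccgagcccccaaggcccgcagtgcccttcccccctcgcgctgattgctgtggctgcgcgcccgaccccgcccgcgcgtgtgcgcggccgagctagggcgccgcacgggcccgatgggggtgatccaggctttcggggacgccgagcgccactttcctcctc

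The *Ctgf* promoter held 1 match to the Smad letters, at -174 from the start, 3 matches to the Tead letters, at -166, -101 and -92, and TATAAA at -31. The 4 capitalised matches do not overlap each other. The other two promoters held none of these letters, which says only that they are not in this window. Among all 9 members, 2 held the Smad letters (*Ctgf* and *Ltbp1*) and 2 the Tead letters (*Ctgf* and *Thbs1*). Of 33469 promoters in the table, 42.9% held the Smad letters, 12.1% the Tead letters and 12.9% TATAAA or TTTATA, so single matches are common.

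The highest *Ctgf* values came from CIE rats 2 and 4, whose striatal and cortical marker sums were high. Within groups, *Ctgf* followed the striatal marker sum (Pearson r = 0.82 across 12 rats with group means removed) and *Tgfb3* the cortical sum (r = 0.81), while *Tgfbr3* followed them less closely (r = 0.34 and 0.39). For *Ctgf* and *Tgfb3* the r with the other sum is not given, so these values do not pair a gene with a region. The sums were high in few rats and each pair of values shares a library, so these correlations are given as a description. Control rat 10 had the highest striatal sum of all rats, and its *Ctgf*, at 8.47 CPM, was the highest Control value and below the 31.0 CPM of CIE rat 2.

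Fits chosen after the values were seen showed how far each member moved with these punches. Without CIE rat 2 and Control rat 10 the log2 fold changes were 1.05 for *Ctgf* (edgeR FDR 0.0587), 0.62 for *Tgfb3* (FDR 0.256) and 0.46 for *Tgfbr3* (FDR 0.232). Without CIE rats 1, 2 and 4 and Control rat 10 they were 0.79 for *Ctgf* (edgeR p 0.000240, FDR 0.145), 0.42 for *Tgfb3* (p 0.0307, FDR 0.851) and 0.43 for *Tgfbr3* (p 0.00648, FDR 0.569). With both marker sums as covariates they were 0.85 for *Ctgf* (edgeR p 0.00172, FDR 0.213) and 0.39 for *Tgfbr3* (p 0.00551, FDR 0.315). *Tgfb3* missed the nominal threshold in that fit at 0.27 (95% interval -0.02 to 0.55, edgeR p 0.0643, FDR 0.635).

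**Figure D3:**
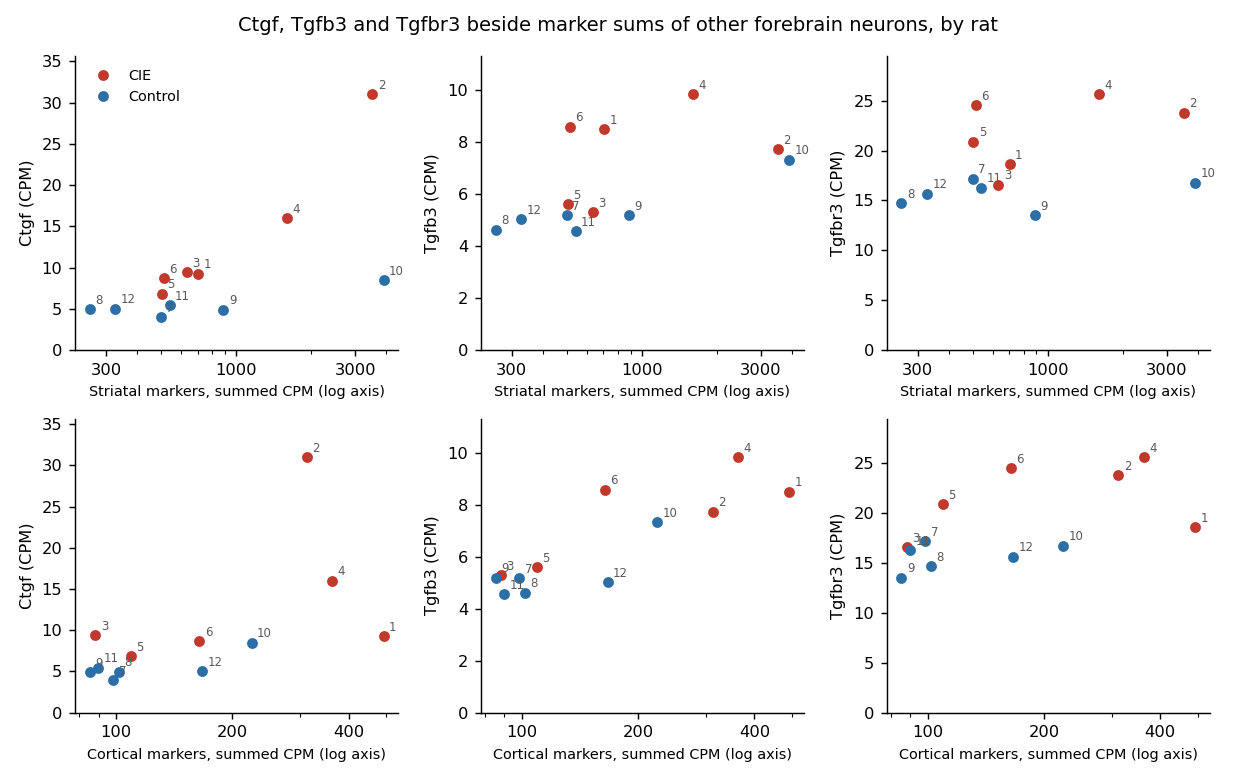
CPM of *Ctgf*, *Tgfb3* and *Tgfbr3* against the summed CPM of striatal (top row) and cortical (bottom row) neuron markers on log axes, 1 point per rat, with rat numbers beside the points, CIE in red and Control in blue. CIE rat 2 and Control rat 10 have the highest striatal sums (3516 and 3903 CPM) and the highest *Ctgf* of their groups (31.0 and 8.47 CPM).

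Summed meningeal fibroblast markers ranged from 48.9 to 102 CPM in CIE and from 111 to 174 CPM in Control, and erythroid markers from 89.6 to 285 and from 362 to 661 CPM, without overlap in either case (exact permutation p 0.00216, the smallest this design allows). The largest fibroblast marker was *Igf2*, at a mean of 24.1 CPM in CIE and 48.8 CPM in Control. Myelinating oligodendrocyte markers ranged from 5593 to 13660 CPM in CIE and from 8633 to 16170 CPM in Control (exact permutation p 0.0303), and oligodendrocyte progenitor (OPC) markers from 502 to 650 and from 597 to 667 CPM (exact permutation p 0.0195). Endothelial sums ranged from 230 to 303 CPM in CIE and from 247 to 312 CPM in Control, and mural sums from 160 to 259 and from 202 to 232 CPM (exact permutation p 0.0866 and 0.130). Platelet markers, relevant to *Tgfb1* and *Thbs1*, summed to 2.69 to 4.58 CPM in CIE and 1.94 to 7.11 CPM in Control (exact permutation p 0.723), with *Ppbp* and *Gp1bb* at 0. The part of these cells in the members' values was not tested.

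The rest of the pathway was read from lists of 140 further genes, of which 129 passed the filter on low counts and were tested in edgeR. At nominal *p* 5 were higher and 9 lower, and past 5% FDR in edgeR 0 were higher and 3 lower (0.258% of all tested genes were lower), with a median log2 fold change of 0.00 as over all tested genes. DESeq2, which was run without that filter and held 139 of these genes, placed 0 higher and 5 lower past 5% FDR. Limma-voom placed 0 higher and 5 lower among 129. The shares over all genes were 1.36% and 1.12% in either direction, and those of lower genes alone are not given for these fits. The nominal counts of the single lists below stand beside the same edgeR shares, and beside 17.2% in either direction in limma-voom. The lists overlap with one another and with the members.

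Of 22 latency and activation genes, 0 were higher and 2 lower at nominal *p*, and 7 had a log2 fold change above 0 and 15 below (median -0.05). DESeq2 had 0 higher and 2 lower, and limma-voom 0 higher and 3 lower. *Thbs2*, a thrombospondin that unlike *Thbs1* cannot activate TGF-beta, had a log2 fold change of -1.09 (edgeR FDR 0.0861, DESeq2 FDR 0.00127). *Itgb1*, the beta-1 integrin subunit, was lower at -0.18 (nominal edgeR p 0.0217), and *Plat*, tissue plasminogen activator, missed the nominal threshold at -0.16 (p 0.121).

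Of 17 receptors and co-receptors, 1 was higher (*Tgfbr3*) and 1 lower at nominal *p*. The lower one was *Eng*, or endoglin, the endothelial co-receptor related to betaglycan. It ranged from 20.4 to 28.4 CPM in CIE and from 25.3 to 36.8 CPM in Control, with a log2 fold change of -0.41 (edgeR p 0.00152, FDR 0.164, DESeq2 FDR 0.0312). The 2 related co-receptors thus had nominal differences of opposite sign. *Acvrl1*, the endothelial type I receptor Alk1, stood at 0.20 (p 0.133) and *Bmpr1b*, a type I receptor for Bmp ligands, at -0.17 (p 0.150).

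None of the 22 Smads and Smad regulators passed the nominal threshold in edgeR or DESeq2, and in limma-voom 1 was higher and 1 lower. *Smad3*, the signal transducer downstream of *Tgfbr1*, had a log2 fold change of 0.53 (edgeR p 0.209) with a range of 39.2 to 132 CPM in CIE and 20.6 to 114 CPM in Control. *Smad7*, the feedback inhibitor induced by TGF-beta, stood at -0.08 (p 0.446). The repressor *Tgif2* (-0.39, p 0.123) and the deubiquitinase *Usp15* (-0.11, p 0.125) also missed it.

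Genes known to be induced by TGF-beta held the 3 list members past 5% FDR, and all 3 fell. *Cdkn1a*, the cell cycle inhibitor p21, fell by 0.71 on the log2 scale, from 7.35 to 9.60 CPM in Control to 3.99 to 5.71 CPM in CIE, without overlap (edgeR FDR 0.0116). *Col3a1* fell by 1.08 on the log2 scale (6.35 to 13.2 CPM in CIE, 13.6 to 26.9 CPM in Control, FDR 0.0243) and *Col1a1*, the main chain of type I collagen, fell by 1.04 (7.90 to 18.4 CPM in CIE, 20.9 to 37.1 CPM in Control, FDR 0.0270). *Cdkn1a* stayed past 5% FDR without any single rat. Both collagens lost their call without CIE rat 1, 2, 4 or 5 or Control rat 9, *Col3a1* also without Control rat 11 or 12 and *Col1a1* also without Control rat 7 or 8, at FDR values up to 0.0734 and 0.0802. Their log2 fold changes stayed about as large in these fits, at -0.94 to -1.11 for *Col3a1* and -0.89 to -1.06 for *Col1a1*. Without CIE rat 2 and Control rat 10, and also with the marker covariates, *Cdkn1a* (FDR 0.0491 and 0.0403) was past 5% FDR and the collagens were not, although their log2 fold changes were -1.05 and -0.97 for *Col3a1* and -1.08 and -0.97 for *Col1a1*. Without CIE rats 1, 2 and 4 and Control rat 10 none of the 3 was (*Cdkn1a* FDR 0.298). The collagens are also on the meningeal fibroblast list, whose sum without them ranged from 30.7 to 58.6 CPM in CIE and from 60.2 to 93.6 CPM in Control. That sum was mostly *Igf2*, at a mean of 24.1 CPM in CIE and 48.8 CPM in Control. *Dcn* was nearly level at 6.48 and 6.55 CPM, and all 10 genes of the list had a log2 fold change below 0.

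Of the 26 tested genes of that list, 2 were higher (*Ctgf* and *Junb*) and 4 lower at nominal *p*. *Junb*, an immediate early transcription factor, had a log2 fold change of 0.60 (edgeR FDR 0.318), and *Col1a2*, the second chain of type I collagen, one of -0.77 (FDR 0.273). *Tgfbi*, a secreted adhesion protein, stood at -0.05 (p 0.876). In all, 11 of the 26 had a log2 fold change above 0 and 15 below.

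The CCN and thrombospondin family had a median log2 fold change of 0.41 over 9 tested genes, with 2 higher and 1 lower at nominal *p*. With the marker covariates the median was 0.13. *Nov*, a CCN relative of *Ctgf* expressed by forebrain neurons, ranged from 2.32 to 47.7 CPM in CIE and from 2.35 to 7.29 CPM in Control (log2 fold change 1.97, edgeR p 0.0130, FDR 0.412), and its high values also came from rats with high cortical sums, CIE rats 1 and 2. *Wisp1*, another CCN relative, was below 1 CPM in every rat.

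Among 16 Yap and Tead targets and factors, 2 were higher and 1 lower at nominal *p*. *Tead3*, a DNA-binding partner of Yap, ranged from 3.35 to 3.97 CPM in CIE and from 2.92 to 3.30 CPM in Control, without overlap (log2 fold change 0.25, edgeR p 0.0240). *Tead2* had a log2 fold change of -0.57 (p 0.0394) at 0.46 to 0.93 CPM in CIE and 0.57 to 1.32 CPM in Control, and *Ankrd1*, a muscle and stress gene induced by Yap, one of 0.95 (p 0.132) at levels under 1 CPM.

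The list of ligands of the wider family had 13 tested genes, among them *Bmp1*, which encodes a protease and not a ligand. Of these genes *Bmp5* (log2 fold change 1.90, edgeR p 0.0175) and *Bmp3* (1.05, p 0.0419) were higher. *Gdf11*, an activin-like ligand, was lower (-0.24, p 0.0149). *Bmp5* ranged from 0.25 to 4.97 CPM in CIE and from 0.16 to 0.80 CPM in Control. On this list the number of higher genes was 0 without CIE rat 1. It was also 0 without CIE rats 1, 2 and 4 and Control rat 10. In the fit with marker covariates it was 0, with 2 lower. It was 1 without CIE rat 4 or Control rat 7, 8, 9, 11 or 12. No extracellular inhibitor (0 of 15) and no Id or Bmp target (0 of 8) passed the nominal threshold in edgeR or DESeq2, and limma-voom had 2 inhibitors lower. The nearest were the proteoglycans *Lum* (-0.43, p 0.0629) and *Bgn* (-0.24, p 0.0671), the Bmp binder *Chrd* (0.41, p 0.135) and the Id genes *Id3* (0.24, p 0.119), *Id2* (-0.16, p 0.221) and *Id1* (0.09, p 0.426).

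**Figure D4:**
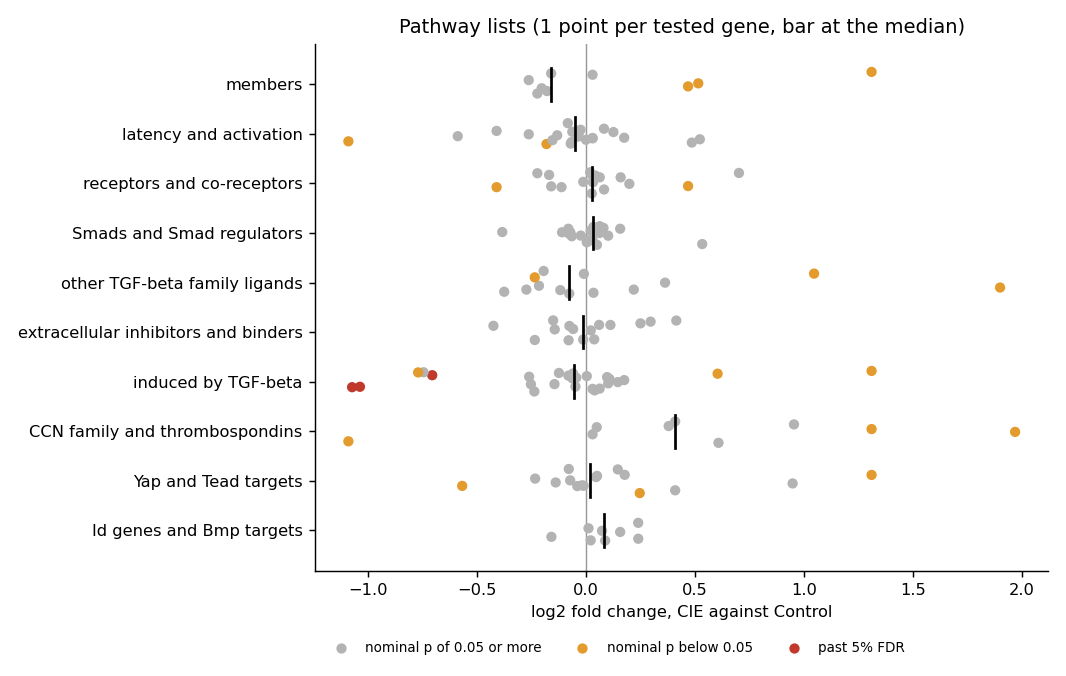
Log2 fold change of CIE against Control for each tested gene of the members and 9 pathway lists, with a black bar at the list median, and colors for genes short of the nominal threshold (grey), past nominal *p* (orange) and past 5% FDR (red). The 3 red points are *Cdkn1a*, *Col3a1* and *Col1a1* in the induced list, all below 0.

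Correlations between members were looked at across rats. Over 36 pairs of members, no correlation across the 12 rats with group means removed had an adjusted permutation p below 0.05. With 12 rats and 36 pairs, this cannot show that the members vary independently. For example, *Tgfbr1* and *Tgfbr2* had r = 0.67 (permutation p 0.0771, adjusted 0.444), and *Tgfb2* and *Tgfb3* had r = -0.61 (permutation p 0.0385, adjusted 0.420). The smallest p belonged to *Tgfbr2* and *Thbs1* (Pearson r = -0.66, permutation p 0.0108, adjusted 0.387; Spearman rho = -0.76, permutation p 0.00516, adjusted 0.186), and r was -0.63 without the 2 rats farthest from the median of *Tgfbr2*. *Tgfbr2* and *Ltbp1* had r = 0.69, which was -0.13 without CIE rats 1 and 6 and so rests on those rats.

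Genes with the most similar pattern were taken from 16891 genes with a mean of at least 1 CPM, by Pearson r of log2 CPM over 12 rats with group means removed. All rats and libraries are shared by the genes compared. The named genes have the highest r of many over few rats, so high values can come from selection alone. None was tested. *Tgfb3* was closest to *Tfdp2* (0.98), *Fam120a* (0.96) and *Nlk* (0.95), *Tgfbr3* to *Dab2ip* (0.91), *Sptlc3* (0.91) and *Rnf157* (0.89), and *Ctgf* to *Churc1* (0.95), *Pcdhb19* (0.93) and LOC500877 (0.93). *Tgfb1* was closest to *Rpusd4* (0.92), *Snx5* (0.87) and *Vbp1* (0.87), and *Tgfb2* to *Phkg1* (0.91), *Acot2* (0.90) and *Lactb2* (0.88). *Tgfbr1* was closest to *Gatad2a* (0.95), *Map4* (0.94) and *Scd* (0.93), and *Tgfbr2* to LOC103690210 (0.92) and the microglial gene *Pld4* (0.91). *Ltbp1* was closest to LOC102548057 (0.92), *Gna13* (0.87) and LOC102550711 (0.86), and *Thbs1* to *Neb* (0.94), *Pxdn* (0.92) and LOC102551403 (0.92).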

How the data were processed

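The deposited table holds raw counts per gene of 12 CeA libraries, with 1 column per rat. To make these counts the authors aligned the reads (BWA, build Rnor_6.0) and assigned them to genes in HTSeq. Whether reads or read pairs were counted, the gene annotation, and the strand and overlap settings are not given in the sources used here, so reads of overlapping genes may be split or lost. Gene names carried a leading space, which was removed. The rats are separate animals, and pairs within a group differed beyond sampling noise.

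The main test was that of edgeR 4.0.16 in R 4.3.3 (TMM, filterByExpr, quasi-likelihood F test, no covariates), with limma 3.58.1, DESeq2 1.42.0 and sva 3.50.0 for alternatives, and in Python 3.11.15 with scipy 1.17.1, pandas 2.3.3, numpy 2.4.6 and matplotlib 3.10.9. The authors used DESeq2 1.26. The fit covered 20944 genes, and FDR is Benjamini-Hochberg over all of them. Exact two-sided permutation tests over 924 divisions of 6 against 6 rats on mean log2 CPM (prior count 2) cannot go below 0.00216. Replicate standard deviations and intervals measure the spread between rats.

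The members and gene lists were chosen with earlier results of these data known. All members were named, with the 3 genes of smallest p and every gene past 5% FDR in each list, and the 3 most alike genes per member, of which 1 is not reported here. *Col1a2*, *Junb*, *Smad7* and *Tgfbi* were named outside this rule after their values were seen. Scripts were tested on simulated counts with 100 genes changed by 0.5 and 100 by 1 on the log2 scale, at 5% FDR. Of these edgeR recovered 47 and 89 with 8 false calls. DESeq2 recovered 66 and 94 with 40 false calls, and limma-voom 45 and 89 with 7. A difference of about 0.5 can thus be missed by edgeR, and DESeq2 made more false calls. Alternatives were DESeq2, a quality-weighted limma-voom, a fit with 1 surrogate variable, other scalings and filters, leaving out each rat, and 3 fits chosen after seeing the data. Promoter letters were read from a RefSeq table of GRCr8, on which no count rests. Levels were not compared between genes, since no transcript lengths were used here.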

Additional observations from a re-analysis of the deposited data

Results flagged for a closer look

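In 18 groups of 6 rats (9 members in CIE and in Control), Dixon's test marked 2 single rats as far from the others of their group, where chance marks about 1 group in 20. Both were Control rat 10, which had 7.33 CPM of *Tgfb3* (gap over range 0.774) and 8.47 CPM of *Ctgf* (gap over range 0.671), each the highest Control value. The same rat had the highest striatal marker sum of all rats (3903 CPM) and the highest cortical sum among Control rats (224 CPM). Without it the log2 fold change was 0.63 for *Tgfb3* (edgeR FDR 0.133) and 1.48 for *Ctgf* (edgeR FDR 0.107).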

How the results depend on the processing

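Across 22 alternatives and 9 members (198 values), 192 kept their direction and 5 passed 5% FDR. The 6 reversed values all belonged to *Thbs1*, which ranged from -0.0877 to 0.132 (log2) when single rats were left out and was -0.11 without CIE rats 1, 2 and 4 and Control rat 10. The number of members past 5% FDR was 2 in DESeq2, 2 in limma-voom and 0 to 1 when single rats were left out. The number past the nominal threshold was 8 in limma-voom, 3 higher and 5 lower, beside 17.2% of all genes in either direction. It was 3 to 6 when single rats were left out, with 6 (3 higher and 3 lower) without CIE rat 6. With the marker covariates it was 2, both higher. *Tgfb3* passed 5% FDR in limma-voom (0.65), *Ctgf* in DESeq2 (1.31), and *Tgfbr3* in DESeq2 (0.48), in limma-voom (0.54) and without CIE rat 3, with a range of 0.41 to 0.53 when single rats were left out. The cause was not tested. When single rats were left out, the FDR of *Tgfb3* was 0.133 to 0.645 and that of *Ctgf* 0.0986 to 0.345. Without removal of group means, *Tgfb1* and *Rpusd4* had r = 0.59, *Ctgf* and *Churc1* 0.39, *Ctgf* and LOC500877 0.36, *Tgfbr3* and *Sptlc3* 0.33, and *Tgfb2* and *Lactb2* 0.50. Other scalings moved the median of all genes by at most 0.02 (log2). No paired analysis was possible because the labels number the rats 1 to 12 and the groups share no number. Members short of the threshold may still differ within their intervals.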

Other observations

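Within single libraries, where the scaling cancels, the ratio of *Tgfbr3* to *Tgfbr2* counts ranged from 0.746 to 1.08 (median 0.994) in CIE and from 0.503 to 0.721 (median 0.562) in Control, without overlap. The ratio was chosen after the values were seen and was not tested. The share of *Tgfb3* among the counts of the 3 ligands ranged from 12.2% to 28.0% (median 19.4%) in CIE and from 9.41% to 19.9% (median 12.3%) in Control, with overlap.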
